A study of Mus musculus with 12 samples.

Results

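The genes described here are Trp53, which encodes the transcription factor p53, and mouse genes established as direct targets of p53, 35 in all. They were chosen by name with earlier results of these data known, though no measured value entered the rule. All 35 were found among the 56884 genes of each count file, and all 35 were among the 17757 genes with enough counts to be tested.

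The libraries came from 12 mouse tumour samples, 3 in each of 4 groups, and every sample carried the genotype label WT. The tumours are labelled as TS/A, a mouse mammary carcinoma line, together with cancer-associated fibroblasts (CAF). The control group carried the treatment label None, which the design text of the series names as vehicle, and the RT group received radiotherapy. The FAP41BBL group received muFAP-4-1BBL, a fusion that carries the ligand of the T cell receptor 4-1BB to FAP, a surface protein of activated fibroblasts, and the RT_FAP41BBL group received both. The labels give no radiation dose, harvest time, mouse strain, sex or age, and do not state the p53 status of the TS/A cells. Nothing in them ties a library to a separate animal, so a p-value here weighs a difference against the spread among samples that may be technical.

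p53 is a transcription factor that is held at low protein level by the ubiquitin ligase Mdm2. DNA breaks of the kind made by ionising radiation activate kinases that stabilise the p53 protein, with little need for more Trp53 mRNA. The stabilised protein binds a DNA element in or near its targets and switches on genes that stop the cell cycle, repair DNA, alter metabolism or start apoptosis, and also genes such as Mdm2 that limit p53 itself.

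The libraries held 34076477 to 42067481 counts in genes, and 24171 to 25773 genes were detected in each. Values are given in CPM, which are read counts scaled to a common library size, here after TMM, a scaling that corrects for differences in RNA composition. Changes are on the log2 scale with their SE, from edgeR's quasi-likelihood test, and passed the test where the adjusted p over all tested genes was under 0.05. Epithelial markers of the tumour line summed to 322 to 588 CPM over the 12 libraries, most of it from the keratins Krt8 and Krt18, while Epcam was at 0.0824 to 8.18 CPM. Fibroblast markers summed to 4881 to 11102 CPM. Because each library is bulk tissue, fewer cells of a type and less RNA per cell cannot be told apart. Skeletal muscle markers stood apart in 1 group: 15 of them summed to 7061, 6810 and 15706 CPM in the RT libraries, against 66.3 to 711 in control, 96.8 to 2326 in FAP41BBL and 614 to 1134 in RT_FAP41BBL. None of the 15 was at 0 in any library, and each was higher in every RT library than in every other library.

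Radiotherapy without the agonist raised 9 of the 35 members and lowered 1 against control. Of all genes tested in RT against control, 6.57% rose and 3.05% fell, 9.62% together. The members that rose were Mdm2, Ccng1, Cdkn1a, Btg2, Plk2, Aen, Tnfrsf10b, Eda2r and Sesn2, and the member that fell was Sesn1. The median log2 change over the 35 members was 0.23, against -0.0019 over all genes. Every RT library was above every control library for 14 members, where 14.9% of all genes showed that order, and below for 2 members, where 11.1% of all genes did. Calls for Ccng1, Cdkn1a, Plk2, Aen, Tnfrsf10b, Eda2r and Sesn2 were kept whichever of the 12 libraries was left out. Without control replicate 2 the calls for Mdm2 (adjusted p = 0.0526), Btg2 and Sesn1 were lost. The Btg2 call was also lost without control replicate 3 and the Sesn1 call without control replicate 1.

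In RT_FAP41BBL against control 12 members rose and 0 fell, where 5.59% of all genes rose, 2.31% fell and 7.91% were called in either direction. Those that rose were Mdm2, Ccng1, Cdkn1a, Btg2, Plk2, Plk3, Bax, Bbc3, Aen, Trp53inp1, Sesn2 and Dcxr. The median change was 0.32, against 0.01 over all genes. Every RT_FAP41BBL library was above every control library for 16 members, where 20% of all genes showed that order, and below for 2, where 18.5% did. The mean log2 CPM of 5 macrophage markers was also highest in RT_FAP41BBL, at 8.35 to 8.64 against at most 8.26 in any other library. Only Adgre1 among them was without overlap, at 338 to 419 CPM against at most 291. Csf1r, Cd68, Itgam and Lyz2 each overlapped, with Lyz2 at 1134 to 1545 CPM there and 1826 in FAP41BBL replicate 3. The summed CPM of the 5 overlapped, at 2157 to 2787 against 1429 to 2656 elsewhere, and none was at 0 in any library. Their part in the changes of this group was not tested. This comparison and the previous one share the 3 control libraries. Only Cdkn1a, Btg2 and Sesn2 kept their call whichever library was left out. Without control replicate 2 or without RT_FAP41BBL replicate 2 the number called was 4, and without control replicate 3 it was 7.

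RT_FAP41BBL against FAP41BBL asks for the change with radiotherapy where every tumour had the agonist. It compares no library of RT against control, though both were tested in the same fit of 12 libraries. Here 4 members rose, Cdkn1a, Aen, Sesn2 and Dcxr, and 0 fell, where 0.822% of all genes rose, 0.124% fell and 0.946% were called. The median change was 0.14, against 0.0002 over all genes. No member was called without FAP41BBL replicate 1. The number was 1 without FAP41BBL replicate 3 or RT_FAP41BBL replicate 2, and 2 without control replicate 2, FAP41BBL replicate 2, or RT_FAP41BBL replicate 1 or 3. When both radiotherapy comparisons were averaged in a single contrast, 12 members rose and 0 fell, where 6.51% of all genes rose, 3.55% fell and 10.1% were called. They were Mdm2, Ccng1, Cdkn1a, Btg2, Plk3, Bax, Aen, Trp53inp1, Eda2r, Sesn2, Dcxr and Ephx1, and without any 1 library the number was 9 to 12. Bax and Ephx1 were each kept in 4 and Trp53inp1 in 7 of the 12 fits with a library left out, and the other 9 in every one.

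**Figure D1:**
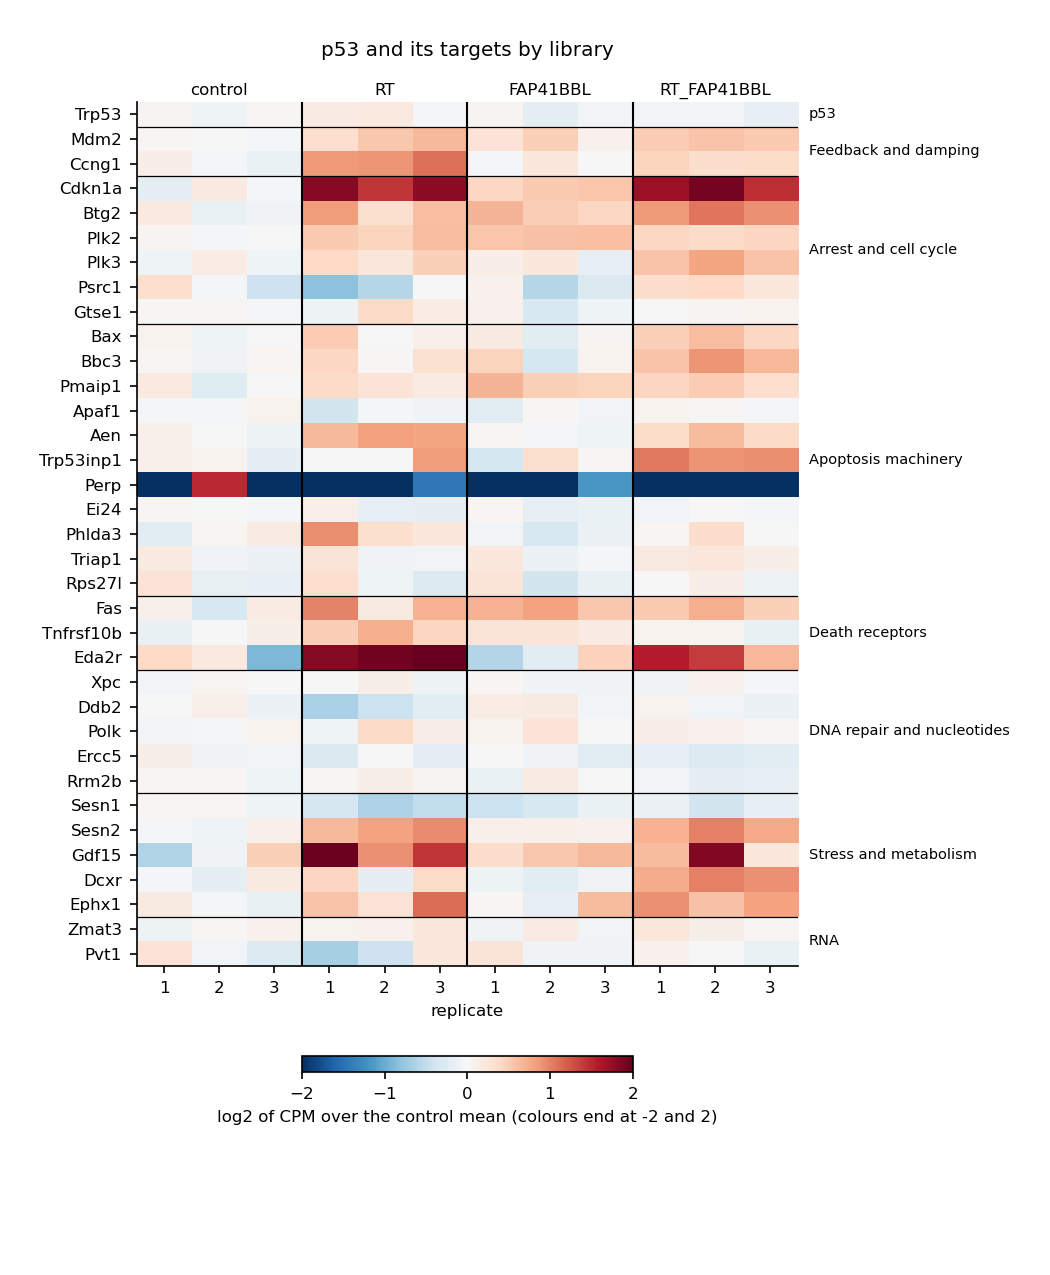
Each row is a member and each column a library, ordered by group and replicate number; the colour is log2 of the library's CPM over the control mean, with colours ending at -2 and 2. Cdkn1a, Sesn2 and Aen are above the control mean in all 6 irradiated libraries, the DNA repair rows stay pale, and Perp is high in control replicate 2 alone.

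Trp53 itself (ENSMUSG00000059552.14; chr11:69471185-69482699, plus strand, GRCm39) did not pass the test in any of the 8 comparisons. It was at 163, 147 and 159 CPM in control, at 175, 180 and 153 with RT, at 163, 139 and 151 with FAP41BBL, and at 150, 150 and 139 with RT_FAP41BBL. The RT and control libraries overlapped, and the averaged radiotherapy change was 0.04 ± 0.07 (SE), with a 95% interval of -0.11 to 0.18.

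Both members of the feedback and damping group rose in RT and in RT_FAP41BBL, each against control, where 6.57% and 5.59% of all genes rose. Mdm2 (chr10:117524780-117546663, minus strand, GRCm39), the ligase that marks p53 for degradation, was at 58.2, 57.6 and 55.9 CPM in control libraries and at 72.3, 83.4 and 90.1 with RT. It was at 69, 79.9 and 60.6 CPM in FAP41BBL and at 81.4, 84.7 and 82.2 in RT_FAP41BBL. Control was the lowest group with no overlap, and FAP41BBL lay between control and RT_FAP41BBL. The changes were 0.52 ± 0.11 in RT against control (adjusted p = 0.0114) and 0.53 ± 0.11 in RT_FAP41BBL against control (adjusted p = 0.0128), while RT_FAP41BBL against FAP41BBL gave 0.25 ± 0.11 (adjusted p = 0.345).

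Ccng1 (chr11:40639379-40646138, minus strand, GRCm39), which encodes cyclin G1, a partner of the phosphatase PP2A that damps p53 through Mdm2, was at 128, 115 and 107 CPM in control. It was at 211, 215 and 250 CPM with RT, at 114, 135 and 117 with FAP41BBL, and at 158, 149 and 150 with RT_FAP41BBL. The irradiated libraries were above all others, and the RT libraries stood above those of RT_FAP41BBL. Ccng1 rose by 0.95 ± 0.11 in RT (adjusted p = 0.000709) and by 0.39 ± 0.10 in RT_FAP41BBL (adjusted p = 0.0416), each against control. The direct comparison of RT_FAP41BBL with RT gave -0.56 ± 0.10 (adjusted p = 0.0128). The rise in RT_FAP41BBL against control was lost without any 1 of 8 libraries, with adjusted p up to 0.165.

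Of the 6 arrest and cell cycle genes, 3 rose in RT and 4 in RT_FAP41BBL, each against control. Of all genes 6.57% and 5.59% rose in these comparisons. Cdkn1a (ENSMUSG00000023067.15; chr17:29309950-29319701, plus strand, GRCm39) encodes p21, the inhibitor of cyclin-dependent kinases that carries out the G1 arrest set off by p53. It was at 36.8, 47.4 and 41.3 CPM in control, at 148, 112 and 144 with RT, at 55.5, 60.1 and 61.5 with FAP41BBL, and at 137, 157 and 116 with RT_FAP41BBL. The 6 irradiated libraries lay above the 6 others, and every FAP41BBL library lay above every control library. The mean was 3.22-fold that of control in RT and 3.27-fold in RT_FAP41BBL. The log2 changes were 1.69 ± 0.14 (adjusted p = 0.000144) and 1.71 ± 0.14 (adjusted p = 0.000251). In RT_FAP41BBL against FAP41BBL the mean was 2.32-fold higher, a log2 change of 1.21 ± 0.14 (adjusted p = 0.0188), a call lost without FAP41BBL replicate 1 (adjusted p = 0.134). FAP41BBL against control gave 0.50 ± 0.14 (adjusted p = 0.684).

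The promoter of Cdkn1a is printed here with those of Ccng1 and Mdm2, because these 3 genes rose together with radiotherapy and their windows held letters of the DNA element that p53 binds. Capitals mark exact matches to the p53 decamer, the 10-base consensus that p53 binds, and pairs of 2 decamers with no base between them, in which up to 2 mismatches were allowed outside the conserved C and G. Both strands were covered because the consensus reads the same on either. Each sequence is the 250 bases before a RefSeq transcript start, read 5′ to 3′ on the gene's strand, on GRCm38.p6, an older build than that of the counts. The Cdkn1a window is chr17:29090729-29090978 (plus strand), that of Ccng1 is chr11:40755287-40755536 (minus strand), and that of Mdm2 is chr10:117710759-117711008 (minus strand).
Cdkn1a: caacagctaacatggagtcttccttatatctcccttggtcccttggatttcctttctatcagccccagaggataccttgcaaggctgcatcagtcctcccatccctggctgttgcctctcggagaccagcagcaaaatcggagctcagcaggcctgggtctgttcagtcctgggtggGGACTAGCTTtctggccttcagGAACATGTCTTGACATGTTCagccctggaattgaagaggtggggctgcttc
Ccng1: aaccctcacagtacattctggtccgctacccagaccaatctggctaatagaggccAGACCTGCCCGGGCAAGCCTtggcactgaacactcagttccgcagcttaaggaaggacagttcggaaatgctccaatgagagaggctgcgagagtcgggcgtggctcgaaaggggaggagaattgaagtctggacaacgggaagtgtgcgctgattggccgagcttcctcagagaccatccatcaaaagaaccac
Mdm2: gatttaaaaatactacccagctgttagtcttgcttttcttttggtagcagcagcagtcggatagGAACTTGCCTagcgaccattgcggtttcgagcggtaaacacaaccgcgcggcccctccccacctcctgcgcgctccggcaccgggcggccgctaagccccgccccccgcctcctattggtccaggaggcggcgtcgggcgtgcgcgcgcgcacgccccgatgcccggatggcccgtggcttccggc

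In the Cdkn1a window the decamer pair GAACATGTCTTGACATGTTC lay at positions -51 to -32, where -1 is the last base before the start, with 1 mismatch, and the lone decamer GGACTAGCTT lay upstream of it. This window belongs to the upstream of 2 annotated Cdkn1a starts, 2790 bases apart, and the window of the other start held no match. The Ccng1 pair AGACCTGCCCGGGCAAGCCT lay at -195 to -176, also with 1 mismatch, and Mdm2 had a lone decamer, GAACTTGCCT, that began at -186. Windows of 300 bases, 250 before and 50 after a start, were found for 26 of the 35 members, 36 windows in all. A decamer was present in 12 of the 36 windows (33.3%), against 8.36% of all 32851 windows, and a pair in 4 (11.1%), against 0.326% of all windows. The other pairs were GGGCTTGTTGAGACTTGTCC of Rps27l, at -117 to -98, and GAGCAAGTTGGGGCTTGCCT of Gtse1, at -1 to 18, and neither of these genes passed the test in any comparison. Of the 11 members with a window that rose in the averaged radiotherapy contrast, 5 had a decamer and 2 a pair. Of the 15 other members with a window, 6 had a decamer and 2 a pair. These matches describe letters in a window and are not measured binding sites.

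Btg2, an antiproliferative gene of the BTG/TOB family, was at 22.9, 18.2 and 19.1 CPM in control, at 35.7, 25.1 and 30.4 with RT, at 32, 28.2 and 26.6 with FAP41BBL, and at 36.4, 42.2 and 37.7 with RT_FAP41BBL. Control was below every other group without overlap. The changes against control were 0.60 ± 0.14 in RT (adjusted p = 0.0177), 0.95 ± 0.14 in RT_FAP41BBL (adjusted p = 0.0028) and 0.53 ± 0.14 in FAP41BBL (adjusted p = 0.671).

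Plk2 (chr13:110531580-110537378, plus strand, GRCm39), a polo-like kinase induced by DNA damage and by other stimuli, was at 42.3, 39.5 and 40.4 CPM in control. It was at 58.6, 55.2 and 62.7 CPM with RT, at 59.9, 60.9 and 61.7 with FAP41BBL, and at 54.3, 53.4 and 55 with RT_FAP41BBL. All 9 treated libraries were above the control libraries, and the RT_FAP41BBL libraries were the lowest of the treated. The change against control was 0.53 ± 0.08 in RT (adjusted p = 0.00213) and 0.41 ± 0.08 in RT_FAP41BBL (adjusted p = 0.00891), the latter lost without control replicate 2 (adjusted p = 0.0766). FAP41BBL against control gave 0.58 ± 0.08 (adjusted p = 0.0535).

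Plk3, a related kinase of the damage response, was at 22.5, 26.6 and 22.5 CPM in control, at 31.5, 27.9 and 33.3 with RT, at 26.2, 27.7 and 21.2 with FAP41BBL, and at 35.3, 41.5 and 35.4 with RT_FAP41BBL. The RT_FAP41BBL libraries were the highest. Plk3 rose by 0.65 ± 0.12 in RT_FAP41BBL against control (adjusted p = 0.0098), lost without RT_FAP41BBL replicate 2 (adjusted p = 0.0525), and by 0.47 ± 0.09 in the averaged contrast (adjusted p = 0.00608). The remaining 2 genes of this group are expressed in dividing cells. Psrc1, a spindle protein, ranged from 4.92 to 11.4 CPM, and Gtse1, a G2 protein that restrains p53, from 26.2 to 42.3 CPM. Neither passed the test in any comparison.

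Among the 11 members of the apoptosis machinery 1 rose in RT, 4 in RT_FAP41BBL against control and 3 in the averaged contrast. Of all genes 6.57%, 5.59% and 6.51% rose in these comparisons, and the RT count of 1 was close to that share. Aen (chr7:78545602-78560957, plus strand, GRCm39), a nuclease that takes part in apoptotic DNA breakdown, was at 37.4, 35.1 and 32.5 CPM in control, at 55, 61.8 and 60.2 with RT, at 35.6, 34.6 and 33.1 with FAP41BBL, and at 44.9, 54.2 and 45.5 with RT_FAP41BBL. The irradiated libraries were above all unirradiated ones, and the RT libraries were the highest. Aen rose by 0.75 ± 0.10 in RT against control (adjusted p = 0.00133) and by 0.62 ± 0.07 in the averaged contrast (adjusted p = 0.000582). It also rose in RT_FAP41BBL, by 0.46 ± 0.10 against control (adjusted p = 0.0143) and by 0.49 ± 0.10 against FAP41BBL (adjusted p = 0.0435). The last of these was kept in 3 of the 12 fits with a library left out, with adjusted p up to 0.222. The RT_FAP41BBL call against control was lost without control replicate 2 or 3 or RT_FAP41BBL replicate 2.

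Trp53inp1, a nuclear protein that binds p53 kinases and promotes apoptosis, was at 24.1, 23.7 and 19.9 CPM in control, at 22.6, 22.7 and 40.1 with RT, at 17.6, 28.3 and 23 with FAP41BBL, and at 46.8, 42.1 and 43.2 with RT_FAP41BBL. Only RT replicate 3, the library with the most muscle marker RNA, was near the RT_FAP41BBL level, and the other RT libraries were at the control level. Trp53inp1 rose by 0.96 ± 0.22 in RT_FAP41BBL against control (adjusted p = 0.0218), and RT against control gave 0.33 ± 0.22 (adjusted p = 0.385). The RT_FAP41BBL call was lost without any 1 of the control or RT_FAP41BBL libraries, with adjusted p up to 0.0799.

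Bax, which opens the mitochondrial outer membrane, was at 32.8, 29.4 and 31.1 CPM in control, at 44.3, 31.3 and 33.4 with RT, at 35.3, 26.7 and 32.1 with FAP41BBL, and at 43.5, 47.9 and 41.4 with RT_FAP41BBL. Bbc3, which encodes the BH3-only protein PUMA, was at 8.48, 7.9 and 8.51 CPM in control, at 11, 8.39 and 10.2 with RT, at 11.3, 6.51 and 8.67 with FAP41BBL, and at 12.3, 15.3 and 13.1 with RT_FAP41BBL. For both genes RT overlapped control and RT_FAP41BBL did not. Against control RT_FAP41BBL was higher by 0.51 ± 0.14 for Bax (adjusted p = 0.0414) and by 0.71 ± 0.19 for Bbc3 (adjusted p = 0.0367). These 2 calls were kept in 3 and in 6 of the 12 fits with a library left out, with adjusted p up to 0.178 and 0.154. RT_FAP41BBL against RT did not pass the test for either, with changes of 0.28 ± 0.14 and 0.46 ± 0.19.

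The other 7 members of the apoptosis group passed in no comparison. Pmaip1, the BH3-only gene for NOXA, was at 5.05 to 6.82 CPM in control, 6.66 to 7.8 in RT, 8.12 to 9.54 in FAP41BBL and 7.51 to 8.49 in RT_FAP41BBL. Apaf1, the core of the apoptosome, gave -0.02 ± 0.07 in the averaged contrast. Ei24, an endoplasmic reticulum protein of autophagy, gave -0.01 ± 0.07, and Triap1, a small mitochondrial protein that limits apoptosis, gave 0.10 ± 0.09. Phlda3, an inhibitor of Akt signalling, gave 0.41 ± 0.13 with adjusted p = 0.0594, and RT replicate 1 at 76 CPM was far above the other RT libraries at 50 and 46.3. Rps27l, a ribosomal protein gene, gave 0.04 ± 0.13; its reads may be shared with near-identical copies of Rps27, so its level is uncertain.

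Perp, a membrane protein of cell junctions that p53 induces, had a pattern set by 1 library. It was at 1.43, 25.8 and 0.165 CPM in control, at 0.555, 0.34 and 3.39 with RT, at 0.604, 0.897 and 4.09 with FAP41BBL, and at 1.55, 0.804 and 1.85 with RT_FAP41BBL. Control replicate 2 was the only library above 5 CPM, and RT replicate 3 and FAP41BBL replicate 3 came next. The 5 keratinocyte markers summed to 55.4 CPM in control replicate 2 and to 1.24 to 13.1 in the other libraries. The keratin Krt5 of skin epithelium stood at 32.9 CPM in control replicate 2 and at 7.85 in RT replicate 3, and then at 5.74 in RT_FAP41BBL replicate 3, 5.45 in FAP41BBL replicate 3 and 4.59 in RT_FAP41BBL replicate 1. The markers did not all follow Perp: in control replicate 2 Krt10 was at 1.65 CPM, below the 3.03 of control replicate 1, and Krt1 was at 0. The part of skin tissue in the Perp values was not tested. Perp passed in no comparison, with a change of -2.68 ± 1.55 in RT against control (adjusted p = 0.336).

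**Figure D2:**
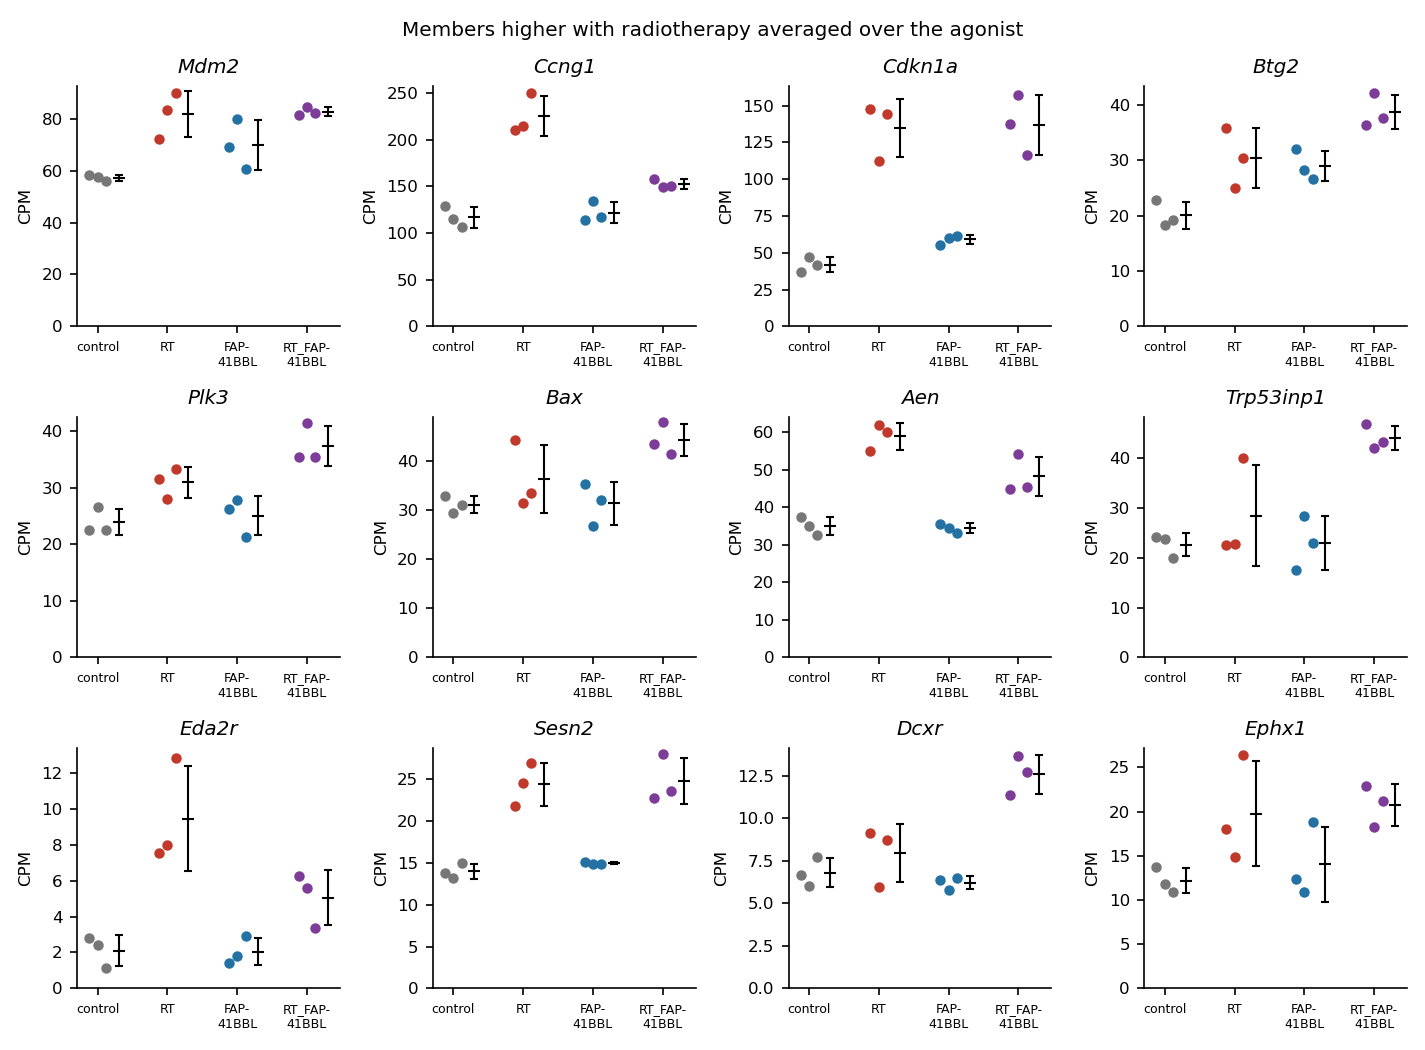
CPM of the 12 members that rose in the averaged radiotherapy contrast; each point is a library, and the bar beside each group is the mean with its SD (n = 3), with every axis starting at 0. Cdkn1a, Sesn2, Ccng1, Plk3, Aen and Eda2r separate the irradiated libraries from the others. Ccng1 is highest in RT, and Trp53inp1 and Dcxr are highest in RT_FAP41BBL.

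Of 3 members that encode cell-surface receptors, Eda2r, Tnfrsf10b and Fas, 2 rose in RT against control and 0 in RT_FAP41BBL against control. Of all genes 6.57% and 5.59% rose in these comparisons. Eda2r (chrX:96377446-96420822, minus strand, GRCm39), a receptor for the ectodysplasin EDA-A2, was at 2.78, 2.42 and 1.13 CPM in control, at 7.56, 8.01 and 12.8 with RT, at 1.41, 1.82 and 2.9 with FAP41BBL, and at 6.24, 5.57 and 3.35 with RT_FAP41BBL. The irradiated libraries were above all others, with RT above RT_FAP41BBL. The RT mean was 4.49-fold that of control, the highest ratio of any member, with a log2 change of 2.16 ± 0.38 (adjusted p = 0.00532). RT_FAP41BBL gave 1.26 ± 0.38 against control (adjusted p = 0.0612) and 1.31 ± 0.38 against FAP41BBL (adjusted p = 0.128). In the averaged contrast Eda2r rose by 1.74 ± 0.27 (adjusted p = 0.00249). With the muscle marker score of each library in the fit, these changes were 0.83 ± 0.45 in RT against control (adjusted p = 0.536) and 0.91 ± 0.30 in the averaged contrast (adjusted p = 0.237), neither past the test.

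Tnfrsf10b, the mouse receptor for the death ligand TRAIL, was at 23.6, 26.5 and 28.6 CPM in control, at 36.8, 43.5 and 35.2 with RT, at 31.2, 31.4 and 29.3 with FAP41BBL, and at 27.4, 27.4 and 23.6 with RT_FAP41BBL. RT was the highest group with no overlap, and RT_FAP41BBL overlapped control. Tnfrsf10b rose by 0.56 ± 0.11 in RT against control (adjusted p = 0.00805), and RT_FAP41BBL against RT gave -0.56 ± 0.11 (adjusted p = 0.0155). The second call was lost without RT replicate 2 or RT_FAP41BBL replicate 2 or 3.

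Fas, the receptor for Fas ligand, was at 9.79, 7.31 and 10.3 CPM in control, at 18.2, 10.3 and 14.8 with RT, at 14.7, 15.9 and 13.3 with FAP41BBL, and at 13, 15.1 and 12.8 with RT_FAP41BBL. Each treated library lay above each control library, RT replicate 2 by the least. No comparison passed, with 0.66 ± 0.19 in RT (adjusted p = 0.0508), 0.68 ± 0.19 in FAP41BBL (adjusted p = 0.684) and 0.58 ± 0.19 in RT_FAP41BBL (adjusted p = 0.0905), each against control. Fas is also expressed by T cells, whose 6 markers summed to 38.8 to 66.7 CPM in control, 22.4 to 43.7 in RT, 64.6 to 79.8 in FAP41BBL and 67.4 to 92.7 in RT_FAP41BBL. Their part in the Fas values was not tested.

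**Figure D3:**
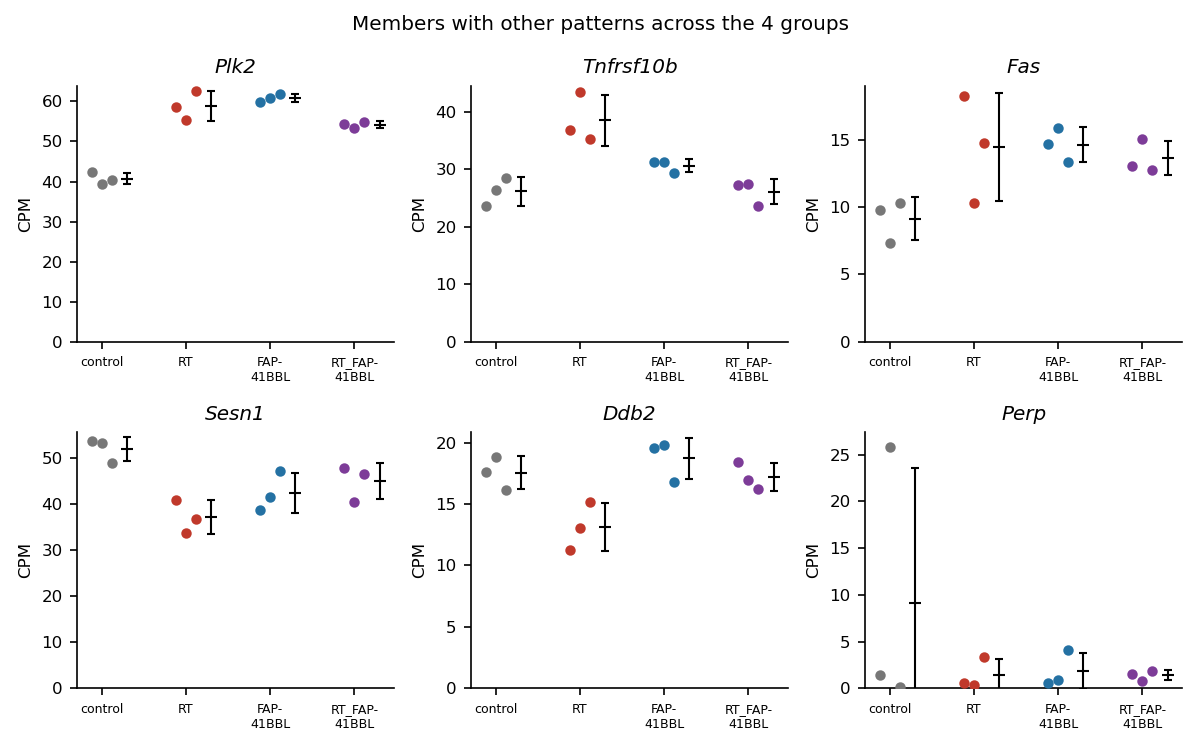
CPM of 6 members whose order across the groups differed from that of Cdkn1a; points are libraries and bars are the mean with its SD (n = 3). Plk2 and Fas are lowest in control, Tnfrsf10b is highest in RT, Sesn1 and Ddb2 are lowest in RT, and Perp is high in control replicate 2 at 25.8 CPM.

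None of the 5 DNA repair and nucleotide genes passed the test in any comparison, where at most 10.1% of all genes were called. Xpc and Ddb2 encode damage sensors of nucleotide excision repair, Ercc5 the nuclease XPG of the same pathway, Polk a translesion polymerase and Rrm2b the ribonucleotide reductase subunit that p53 induces. In the averaged radiotherapy contrast their changes ran from -0.27 to 0.05. The 95% interval was -0.12 to 0.16 for Xpc, -0.13 to 0.23 for Polk, -0.30 to 0.02 for Ercc5 and -0.18 to 0.11 for Rrm2b. For none of these 4 did the interval reach the 0.77 seen for Sesn2. Ddb2 was at 17.7, 18.8 and 16.2 CPM in control, at 11.3, 13.1 and 15.2 with RT, at 19.6, 19.8 and 16.8 with FAP41BBL, and at 18.4, 16.9 and 16.2 with RT_FAP41BBL. The RT libraries of Ddb2 were the lowest, with a change of -0.42 ± 0.13 against control (adjusted p = 0.0583).

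The stress and metabolism group held members that moved in opposite directions. Sesn2 (chr4:132219343-132237812, minus strand, GRCm39) and Sesn1 encode sestrins, which restrain the growth kinase complex mTORC1. Sesn2 was at 13.8, 13.2 and 15 CPM in control, at 21.8, 24.6 and 26.9 with RT, at 15.1, 14.9 and 14.9 with FAP41BBL, and at 22.8, 28 and 23.7 with RT_FAP41BBL. The lowest irradiated library was at 21.8 CPM and the highest of the others at 15.1. Sesn2 rose by 0.81 ± 0.11 in RT against control (adjusted p = 0.00176), by 0.83 ± 0.11 in RT_FAP41BBL against control (adjusted p = 0.00246) and by 0.73 ± 0.11 against FAP41BBL (adjusted p = 0.0201). The last of these was lost without FAP41BBL replicate 1 or 3 or RT_FAP41BBL replicate 2.

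Sesn1 was at 53.7, 53.3 and 49 CPM in control, at 41, 33.7 and 36.8 with RT, at 38.7, 41.6 and 47.2 with FAP41BBL, and at 47.9, 40.5 and 46.6 with RT_FAP41BBL. Control was the highest group with no overlap. Sesn1 fell by 0.48 ± 0.11 in RT against control on the log2 scale (adjusted p = 0.0148), and the other groups gave -0.29 ± 0.11 in FAP41BBL (adjusted p = 0.905) and -0.21 ± 0.11 in RT_FAP41BBL (adjusted p = 0.263).

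Dcxr (chr11:120616225-120618107, minus strand, GRCm39), a dicarbonyl and L-xylulose reductase, was at 6.68, 6 and 7.69 CPM in control, at 9.12, 5.97 and 8.72 with RT, at 6.34, 5.79 and 6.5 with FAP41BBL, and at 11.3, 13.6 and 12.7 with RT_FAP41BBL. The RT_FAP41BBL libraries were above all 9 others, and RT overlapped control. They also held the highest Adgre1 levels, while the other macrophage markers overlapped. Dcxr rose by 0.89 ± 0.17 in RT_FAP41BBL against control (adjusted p = 0.0103), by 1.02 ± 0.17 against FAP41BBL (adjusted p = 0.0234) and by 0.66 ± 0.17 against RT (adjusted p = 0.0436). RT against control gave 0.23 ± 0.17 (adjusted p = 0.469). The call against RT was kept in 2 and the call against FAP41BBL in 5 of the 12 fits with a library left out, with adjusted p up to 0.163 and 0.165. The call against control was lost without control replicate 2 or RT_FAP41BBL replicate 2 (adjusted p up to 0.0743).

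Ephx1, the microsomal epoxide hydrolase, was at 13.8, 11.8 and 10.9 CPM in control, at 18.1, 14.8 and 26.4 with RT, at 12.4, 10.8 and 18.9 with FAP41BBL, and at 22.9, 18.2 and 21.2 with RT_FAP41BBL. RT replicate 3 and FAP41BBL replicate 3, the libraries with the most muscle marker RNA in their groups, were also the highest of their groups. The other groups did not show this. In control and in RT_FAP41BBL replicate 2 held the most muscle marker RNA, at 711 and 1134 CPM, while Ephx1 was highest in replicate 1. The part of muscle tissue in the Ephx1 values was not tested. Ephx1 rose by 0.63 ± 0.16 in the averaged contrast (adjusted p = 0.0302), a call kept in 4 of the 12 fits with a library left out, with adjusted p up to 0.0826. Gdf15, a secreted stress cytokine, had only 7 to 44 counts a library. It was at 0.196, 0.283 and 0.412 CPM in control libraries and at 1.16, 0.558 and 0.798 with RT, with a change of 1.48 ± 0.46 (adjusted p = 0.0651).

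Neither RNA member passed the test. Zmat3, an RNA-binding zinc finger protein that acts on splicing, was at 57.7 ± 3.75 CPM in control (mean ± SD, n = 3) and 63.3 ± 3.8 in RT, and the averaged contrast gave 0.12 ± 0.07. Pvt1, a long non-coding RNA beside Myc, ranged from 107 to 206 CPM, and its averaged contrast was -0.15 ± 0.14.

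On the scale of CPM per kilobase of exon, which allows levels to be compared between genes, Cdkn1a went from rank 11 of the 35 members in control (11.8) to rank 4 in RT (37.9) and rank 3 in RT_FAP41BBL (38.5). Its level then lay beside that of Trp53, at 41.8 in RT and 36.2 in RT_FAP41BBL, and Trp53 was at 38.6 in control. Ccng1 was at 33.2 CPM per kilobase in control and 64.2 in RT. Eda2r, with the highest ratio, remained at rank 33 or 34 in each group, at 0.358 in control and 1.61 in RT.

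Both radiotherapy comparisons, RT against control and RT_FAP41BBL against FAP41BBL, compare different libraries and can be set side by side. They were tested in 1 fit that shared its estimate of spread over all 12 libraries, so their calls are not independent. The Aen call against FAP41BBL, for example, was lost without any 1 control library. Of the 35 members 20 were above 0 in both, 4 were below 0 in both and 11 had opposite signs. Cdkn1a, Aen and Sesn2 passed in both. Of the 9 members that rose without the agonist, 7 were above 0 with it, and the exceptions were Plk2 at -0.17 ± 0.08 and Tnfrsf10b at -0.23 ± 0.11. Across the 35 members Pearson's r was 0.63 and Spearman's rho 0.50, and without Perp 0.61 and 0.46; genes are not independent replicates, and all of them were read in the same 12 libraries.

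**Figure D4:**
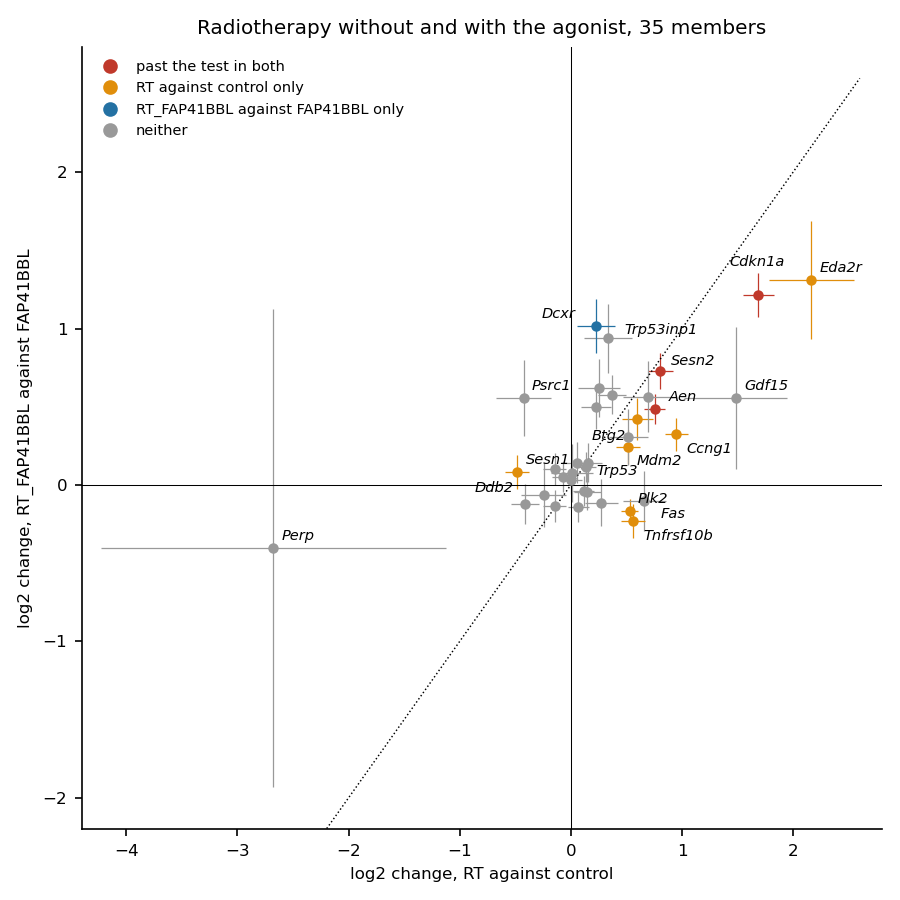
Log2 change of the 35 members in RT against control (x axis) and in RT_FAP41BBL against FAP41BBL (y axis), with SE bars and a dotted line of equal change. Cdkn1a and Eda2r lie farthest up and right, below the line; Dcxr and Trp53inp1 lie above it, and Plk2 and Tnfrsf10b lie under the horizontal 0 line.

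The agonist without radiotherapy passed the test for 0 of the 35 members in FAP41BBL against control, where 0.00563% of all genes were called. At an unadjusted p under 0.05 there were 7 members, and DESeq2 called 1 and limma-voom 0. The share of all genes at these settings is not given, so these counts have no background to be read against. Among members whose groups did not overlap the largest changes were those of Fas at 0.68 ± 0.19, Plk2 at 0.58 ± 0.08, Pmaip1 at 0.54 ± 0.15, Btg2 at 0.53 ± 0.14 and Cdkn1a at 0.50 ± 0.14. In each of these the 3 FAP41BBL libraries were above the 3 control libraries, an order that 7 members showed and 5.7% of all genes showed. Adipocyte markers moved with the same comparison without overlap: 5 of them summed to 100 to 187 CPM in FAP41BBL and to 18.5 to 63.7 in control, where Lep was at 0 in replicate 3, and their part in these changes was not tested. The reverse order was seen for 1 member, Sesn1, and for 5.07% of all genes. The agonist averaged over radiotherapy also gave 0 members, where 0.349% of all genes were called. At an unadjusted p under 0.05 it gave 9, with 4 by DESeq2 and 0 by limma-voom, again without a share over all genes. Without RT replicate 3 the averaged contrast called 3 members, and without RT replicate 2 FAP41BBL against control called 1.

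With radiotherapy in both groups, RT_FAP41BBL against RT, Ccng1 and Tnfrsf10b were lower and Dcxr was higher, 3 calls of 35, where 2.4% of all genes were lower, 3.36% were higher and 5.76% were called. The 3 values are given with the genes above. The number called was 0 without RT_FAP41BBL replicate 2 or 3, 1 without RT replicate 2 and 6 without RT replicate 3. The interaction, RT_FAP41BBL against FAP41BBL minus RT against control, passed for Plk2 alone, in the lower direction, where 0.124% of all genes were lower, 0.0282% were higher and 0.152% were called. It was -0.70 ± 0.11 for Plk2 (adjusted p = 0.0311), and all 3 RT_FAP41BBL libraries were below all FAP41BBL libraries while all 3 RT libraries were above all control libraries. The call was kept only without RT replicate 2, RT replicate 3 or FAP41BBL replicate 2, and adjusted p was up to 0.132 without any 1 of the 9 other libraries. Without RT replicate 3 the number of members called was 2. The Plk2 call was also lost with library totals (adjusted p = 0.0564), the replicate block (adjusted p = 0.0644) and the muscle covariate (adjusted p = 0.217). Each of these called 0 members, while DESeq2 called 4, with its share of all genes not given. Tnfrsf10b, with the next smallest adjusted p, gave -0.79 ± 0.15 (adjusted p = 0.0668).

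The muscle marker RNA moved with the RT label, and 1 fit took a library's muscle score as a covariate. With it the number of members called in RT against control was 0, and all 10 earlier calls had the same sign. The share of all genes called with the covariate is not given. The changes were 0.38 to 1.35 times those without the covariate, with a median of 0.96 times, and the lowest was that of Eda2r. Cdkn1a moved from 1.69 to 1.56 ± 0.25 (adjusted p = 0.0654). Because every RT library held more muscle marker RNA than every other library, the covariate and radiotherapy without the agonist cannot be told apart in full. In RT_FAP41BBL against control 7 of the 12 calls held, for Mdm2, Cdkn1a, Btg2, Plk2, Plk3, Sesn2 and Dcxr. Those lost were Ccng1, Bax, Bbc3, Aen and Trp53inp1, each within 1.5 times of its change without the covariate. RT_FAP41BBL against FAP41BBL lost Aen (adjusted p = 0.0805) and kept Cdkn1a, Sesn2 and Dcxr, while the averaged contrast kept Cdkn1a and Sesn2. The 12 averaged changes were 0.29 to 1.25 times those without the covariate, with a median of 0.95 times, and the lowest was that of Ephx1, which went from 0.63 to 0.18 ± 0.20.

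Muscle marker levels were not higher in RT_FAP41BBL than in every FAP41BBL library. FAP41BBL replicate 3, at 2326 CPM of muscle markers, held more of this RNA than any RT_FAP41BBL library, at 614 to 1134 CPM. It had 61.5 CPM of Cdkn1a, against 116 to 157 in RT_FAP41BBL, and 23 CPM of Trp53inp1, against 42.1 to 46.8. Its Eda2r level of 2.9 CPM was below the 3.35 to 6.24 of RT_FAP41BBL, and its Ephx1 level of 18.9 CPM was within their range of 18.2 to 22.9. Over the 9 libraries outside RT, Spearman's rho with the muscle score was 0.63 for Cdkn1a, 0.37 for Trp53inp1, 0.80 for Eda2r and 0.72 for Ephx1. It was 0.13 for Sesn2 and 0.45 for Ccng1. These libraries include those of RT_FAP41BBL, which were irradiated, so rho cannot separate muscle from radiotherapy. FAP41BBL replicate 3 is 1 library, and the part of muscle tissue in these values was not tested.

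**Figure D5:**
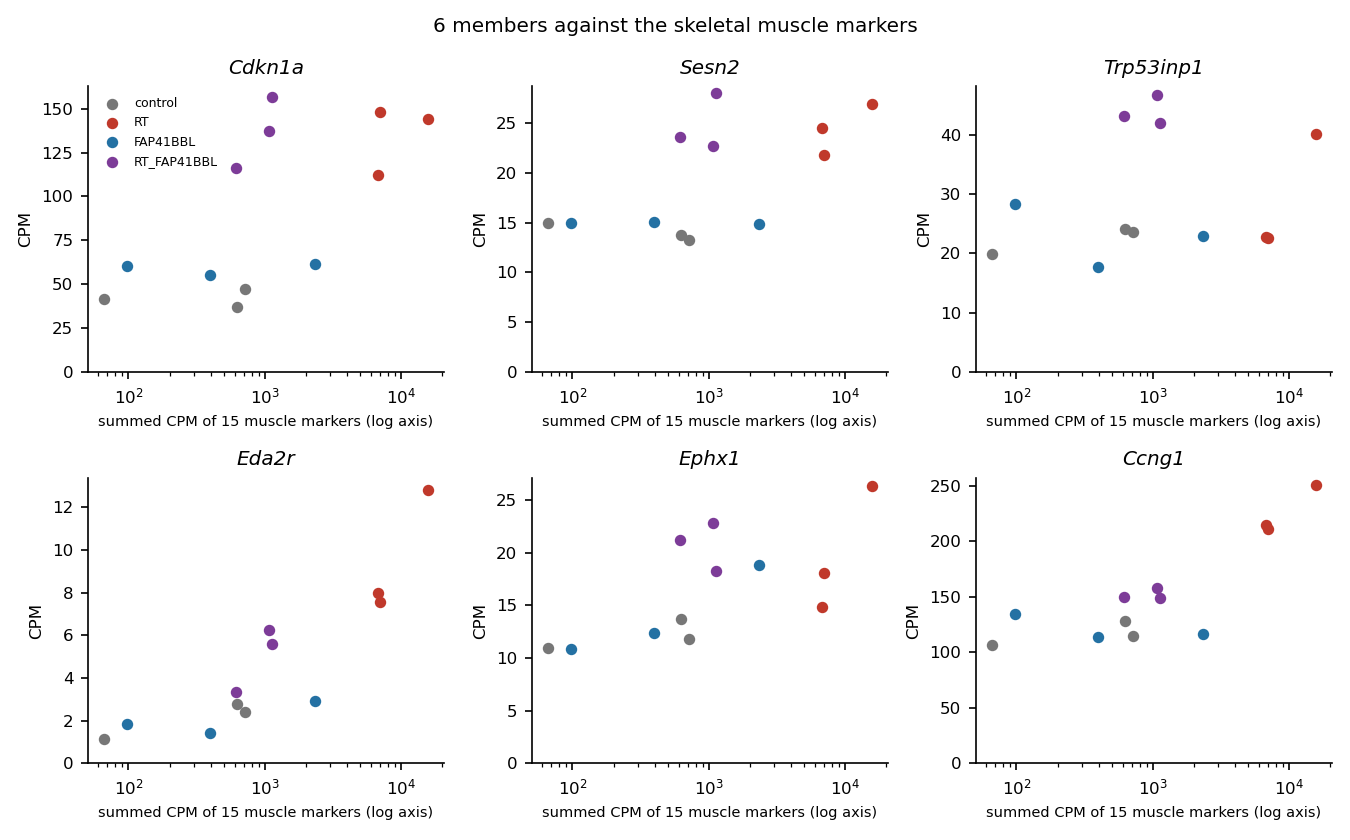
CPM of 6 members against the summed CPM of 15 skeletal muscle markers on a log axis; each point is a library, coloured by group. The Cdkn1a and Sesn2 points of RT_FAP41BBL overlap those of RT at lower muscle marker levels, whereas Eda2r and Ccng1 are highest in the RT libraries, at 6810 to 15706 CPM of muscle markers.

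A further list of 30 established p53 targets, of which 29 were tested, gave 7 that rose and 0 that fell in the averaged radiotherapy contrast (24.1%, against 10.1% of all genes), with a median change of 0.04 against 0.0026 over all genes. In RT against control 4 rose and 1 fell, Abhd4 at -0.37 ± 0.10 (adjusted p = 0.0328), where 6.57% of all genes rose and 3.05% fell. In RT_FAP41BBL against control 4 rose and 1 fell, Gadd45a at -0.96 ± 0.25 (adjusted p = 0.0371), where 5.59% of all genes rose and 2.31% fell. The Gadd45a mean was 47.3 CPM in control and 24.4 in RT_FAP41BBL. In RT_FAP41BBL against FAP41BBL 1 rose, where 0.822% of all genes did. The 4 with the smallest p in the averaged contrast were Trp53cor1, Tigar, Ctsd and Slc19a2. Trp53cor1, the long non-coding RNA lincRNA-p21, lies upstream of Cdkn1a on the opposite strand (chr17:29276404-29298153, GRCm39). Its counts were 5, 4 and 7 in control, rose to 22, 23 and 48 with RT, were 8, 11 and 14 with FAP41BBL, and rose to 53, 55 and 59 with RT_FAP41BBL. The irradiated libraries were above the others with no overlap, and the averaged change was 2.32 ± 0.28 (adjusted p = 0.000768). Tigar, which lowers glycolytic flux, was at 13.6, 12.5 and 11.9 CPM in control and 20.7, 22 and 22.9 in RT, and rose by 0.53 ± 0.07 in the averaged contrast. Ctsd, the lysosomal protease cathepsin D, rose by 0.56 ± 0.10, and Slc19a2, a thiamine transporter, by 0.34 ± 0.07. Ak1, also among the 7, had means of 95.8 CPM in RT, 42.6 in control, 40.8 in FAP41BBL and 36.3 in RT_FAP41BBL. Muscle markers were likewise highest in RT, and their part in the Ak1 values was not tested.

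Genes that act on p53 itself formed a separate list. Of 20 regulators, among them the kinases Atm and Chek2, 19 were tested, and 0 passed in any comparison. In the averaged radiotherapy contrast 10.1% of all genes were called, and the median change of the regulators was -0.03. There 1 regulator had an unadjusted p under 0.05. That gene was Cdkn2a, which encodes the Mdm2 antagonist ARF, at -0.42 ± 0.15 (adjusted p = 0.103). The next 3 by p were Ppp1r13b at 0.15 ± 0.08, Kat5 at -0.12 ± 0.06 and Chek2 at -0.16 ± 0.10.

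Cell cycle genes that p53 lowers through p21 numbered 24, and all were tested. In the averaged contrast 1 rose and 1 fell (8.33%, against 10.1% of all genes), a share below that of all genes, with a median of -0.10. Ccnb2, the mitotic cyclin B2, fell by 0.53 ± 0.14 (adjusted p = 0.0349), and Mybl2, a transcription factor of the S and G2 phases, rose by 0.40 ± 0.09 (adjusted p = 0.0145). Cdc25b gave -0.21 ± 0.10 and Kif23 -0.21 ± 0.10, neither past the test. Mybl2 was also the only gene of the list called in RT against control. In RT_FAP41BBL against control the median was -0.24, with 0 called, 6 at an unadjusted p under 0.05 and 4 of the 24 above 0. The share of all genes at the unadjusted threshold is not given. The RT_FAP41BBL libraries were below the control libraries without overlap for 15 of the 24, where 18.5% of all genes showed that order, and above for 1.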

How the data were processed

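Poly(A) RNA of 12 tumour samples was sequenced from stranded libraries, and each deposited file holds the raw gene counts of 1 library. Per the file headers, the authors made the counts with featureCounts 1.6.0 on the reverse strand, with GENCODE M33; the build GRCm39 and STAR 2.7.9a are named per the submitters' processing notes. Symbols were matched by gene identifier, which named 51948 of 56884 genes (91.3%). The members and lists were chosen with earlier results of these data known, and all 35 members are accounted for. A member past the threshold is described in full. Of each further list up to 4 genes are named by p, and of the other p53 targets also Ak1 and those that fell against control.

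The test was that of edgeR 4.0.16 in R 4.3.3 (filterByExpr, TMM, 1 model of the 4 groups over 12 libraries, robust quasi-likelihood test, Benjamini-Hochberg over 17757 genes at 0.05; common biological coefficient of variation 0.205, 8 residual degrees of freedom). CPM were computed here from the deposited counts. The steps were tested on simulated data. Alternatives were RLE factors, library totals, no filter, DESeq2 1.42.0, limma-voom (limma 3.58.1), a replicate block, only the compared groups, each library left out, and a skeletal muscle score as covariate. Promoters were from RefSeq (GRCm38.p6).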

Additional observations from a re-analysis of the deposited data

Results flagged for a closer look

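The log2 interaction of Plk2 was -0.70 ± 0.11 (SE), so the change with radiotherapy differed between tumours with and without the agonist by the test of the difference itself (edgeR adjusted p = 0.0311). Radiotherapy changed Plk2 by 0.53 without the agonist and by -0.17 with it. The call was kept in 3 of the 12 fits that left out a library, and not with the replicate block, library totals or the muscle covariate.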

How the results depend on the processing

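The 43 changes of single members tested again were those past the test, and Mdm2 in RT_FAP41BBL against FAP41BBL. None changed sign, but they were picked from these same counts, and members not called were not followed. DESeq2, limma-voom and RLE factors kept every one on its side of the threshold, library totals and no low-count filter kept 41 each, only the compared groups 27 of 30, and the fits without a library 408 of 516. DESeq2 called 1 member in FAP41BBL against control, 9 in RT_FAP41BBL against FAP41BBL and 6 in RT_FAP41BBL against RT. It called 4 for the agonist averaged over radiotherapy and 4 for the interaction. The share of all genes that DESeq2 called is not given beside these counts. Without the low-count filter the numbers were 1 in FAP41BBL against control, 1 for the averaged agonist and 2 for the interaction, and library totals gave 0 for the interaction. The muscle covariate kept 13 of 43 and gave 0 members in RT against control, 7 in RT_FAP41BBL against control, 0 in RT_FAP41BBL against RT, 2 in the averaged radiotherapy contrast and 0 for the interaction; the cause was not tested. Without any 1 library the numbers ran from 7 to 12 in RT against control, 0 to 1 in FAP41BBL against control, 4 to 14 in RT_FAP41BBL against control, 0 to 6 in RT_FAP41BBL against FAP41BBL, 0 to 6 in RT_FAP41BBL against RT, 9 to 12 for averaged radiotherapy, 0 to 3 for the averaged agonist and 0 to 2 for the interaction. For these other settings too the share of all genes called is not given, so the counts show only how the calls moved. A fit without 1 library assumes that a group of 2 varies like the others.

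The replicate numbers were tested for pairing: 6 of 18 same-number pairs of libraries had a correlation of deviations over 0.1, with a range of -0.34 to 0.43, and 6 of 12 libraries correlated best with their own number. With the replicate number as a block, 10 members passed in RT against control, and 12 in RT_FAP41BBL against control, 4 against FAP41BBL and 3 against RT. The number was 12 for averaged radiotherapy, and 0 for FAP41BBL against control, the averaged agonist and the interaction. Of the 43 changes 41 stayed on their side. The share of all genes called in this fit is not given, so these counts have no background to be read against.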
